A study of Mus musculus with 32 samples.

Results

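The comparison described here is the developmental step from E12.5 to E16.5 in mouse brain without working Dhcr7, the enzyme that carries out the last reduction in cholesterol synthesis. It rests on the 4 Dhcr7-/- (KO) libraries of E12.5 and the 4 of E16.5, chosen by their labels, which are 8 of the 32 libraries of the series. The same step in the 8 Dhcr7+/+ (WT) libraries of these stages served for comparison, and the KO and WT steps share no library. All animals were C57BL/6J, and whole brain was taken as the tissue at 3 embryonic stages (E12.5, E14.5, E16.5) and on the day of birth (PND0). RNA was enriched for polyadenylated transcripts and read as 150 bp pairs. Mice that lack Dhcr7 are a model of Smith-Lemli-Opitz syndrome, and neither cell type nor region was selected. Bulk tissue was measured, so fewer cells of a type and less RNA per cell cannot be told apart.

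Between E12.5 and E16.5 the mouse brain passes from a tissue made largely of dividing neuroepithelial and radial glial cells to one filled with young neurons that extend axons and begin to build synapses, while the first glial precursors appear. Radial glia divide at the ventricle, give rise to intermediate progenitors that carry proneural factors, and these yield neurons. Cholesterol in the fetal brain comes increasingly from synthesis within the brain, under the transcription factor SREBP-2, and oxidised sterols act through the nuclear receptors LXR on genes of sterol export.

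Total counts of the 16 libraries of both genotypes ran from 13868087 to 27405041, so that 3 counts correspond to 0.109 to 0.228 CPM (the count scaled to the size and composition of its library). Each stage was deposited as a table of its own that holds both genotypes, so stage cannot be told apart from any handling difference between tables. A handling difference shared by both genotypes of a stage would enter the KO and the WT step alike. Whether both genotypes of a stage were handled together is not stated. The labels give no litter, sex or statement on separate animals, and p-values measure the spread between these libraries. Ddx3y, a Y-linked gene, was above 1 CPM in 2 E12.5 KO, 1 E16.5 KO, 1 E12.5 WT and 2 E16.5 WT libraries. Reads of CT010467.1, a ribosomal RNA gene, made up 5.64% of the first E12.5 KO library and 3.75% of the first E16.5 WT library, and 0.191% of the lowest of the 16. That E12.5 KO library was also the lowest of its group in the summed level of synaptic vesicle, glutamate receptor, GABA-A receptor and channel genes.

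Dhcr7 itself (chromosome 7, 143823145 to 143848410, plus strand, GRCm38) was present at 15.6, 23.0, 26.7 and 22.3 CPM in the E12.5 KO libraries and at 17.7, 15.9, 16.9 and 17.9 CPM in those of E16.5. The 8 WT libraries lay between 58.6 and 72.0 CPM, above every KO library. The labels do not say which exons are missing, and a count over the whole gene includes reads from those that remain. Within KO the residual transcript fell by 0.36 (log2, SE 0.12, adjusted p = 0.0158, edgeR quasi-likelihood test with Benjamini-Hochberg adjustment), with overlapping stages. Acte1, an actin-like gene downstream of Dhcr7 on the same strand (143866838 to 143900046), was at 2.20, 3.22, 3.80 and 3.39 CPM in E12.5 KO and at 3.83, 3.53, 5.8 and 5.09 CPM in E16.5 KO. It had 0 counts in all 8 WT libraries, and its step in KO did not pass the test (log2 0.53, adjusted p = 0.0844).

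Most genes tested changed in KO brain between the 2 stages, 56.6% in all. Of 18241 genes, 4929 rose (27.0%) and 5402 fell (29.6%) at an adjusted p under 0.05. Counts of called list members given below are to be read against these shares. A change of at least 2-fold was called for 2270 rising genes (12.4%) and 1356 falling genes (7.43%), together 19.9%. The 4 libraries of each stage did not overlap for 51.5% of genes in KO and 54.1% in WT. In WT, 4846 rose (26.6%) and 5322 fell (29.2%), together 55.7%. Of the genes rising in KO, 4032 also rose in WT, which is 81.8% of the KO list and 83.2% of the WT list. Of the falling genes 4229 were shared, 78.3% of the KO list and 79.5% of the WT list. Among the 2064 genes called in KO and not in WT, 90.1% had the same sign in WT. Across the 16040 genes at a mean of at least 1 CPM, the total least squares slope between the KO and WT steps was 0.944. This slope treats both steps alike and is not a regression of KO on WT. The Pearson correlation across genes was 0.847, and both values are given as a description since genes are not independent.

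**Figure D1:**
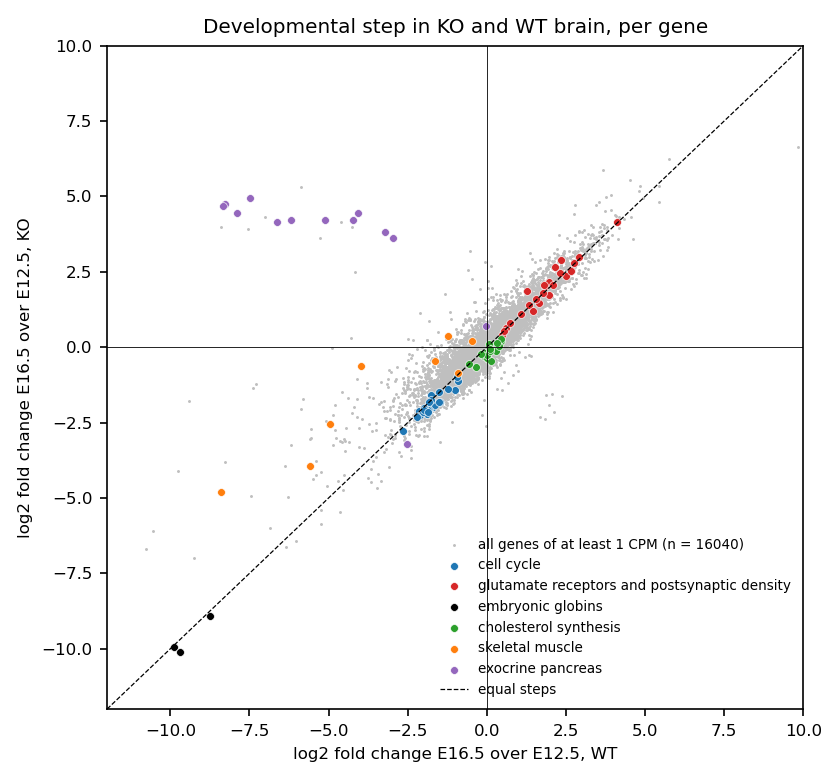
Log2 fold change from E12.5 to E16.5 in WT (x axis) and KO (y axis), 1 grey point per gene at a mean of at least 1 CPM (n = 16040), with 6 gene lists in colour and the line of equal steps dashed. Cell cycle genes and embryonic globins lie low in both genotypes and glutamate receptor genes high in both, while exocrine pancreas genes lie high in KO and low in WT.

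The largest increases at a mean of at least 10 CPM were in genes of maturing neurons and of the brain's coverings. Ptgds, the prostaglandin D2 synthase made by meninges and choroid plexus, was at 1.37, 1.81, 1.81 and 3.15 CPM at E12.5 and at 160, 98.5, 219 and 143 CPM at E16.5 (log2 6.23, SE 0.60, adjusted p = 8.49e-07). Sla, an adaptor protein of receptor tyrosine kinase signalling, rose from 1.27 to 2.43 CPM at E12.5 to between 61.2 and 75.6 CPM (log2 5.17). The groups did not overlap for either gene. Slc6a7, a brain proline transporter (log2 4.32), Caln1, a calcium-binding protein of neurons (4.32), Dync1i1, a neuronal dynein chain (4.24), and Grm5, the metabotropic glutamate receptor 5 (4.13), followed. In WT each of these 6 genes rose as well, by 4.10 (Grm5) to 5.76 (Ptgds) on the log2 scale.

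Olig3, Tal2 and Hmga2 were among the genes with the largest decreases in KO. Olig3, a factor of dorsal hindbrain and thalamic progenitors, was at 22.5, 25.9, 27.9 and 14.97 CPM at E12.5 and at 0.601, 0.622, 0.811 and 1.36 CPM at E16.5 (log2 -4.73, SE 0.37, adjusted p = 4.47e-08). Tal2, which specifies midbrain GABA neurons, was between 59.3 and 71.1 CPM at E12.5 and between 0.686 and 4.70 CPM at E16.5 (log2 -4.67). Hmga2, a chromatin protein of early stem cells, was between 63.4 and 104 CPM and then between 2.81 and 4.47 CPM (log2 -4.60). The 2 stages were apart for all 3 genes. The WT changes were -4.55, -3.48 and -5.05, and none of the 3 differences between genotypes had an unadjusted p under 0.119. A list of 12 midbrain and cerebellum genes summed to 308 to 379 CPM in E12.5 KO and 89.4 to 203 CPM in E16.5 KO. In WT the sums ran from 223 to 339 CPM at E12.5 and from 31.2 to 206 CPM at E16.5. Whether the regional content of the libraries had a part in the falls of Olig3 and Tal2 was not tested.

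Embryonic globin transcripts fell to near 0 in KO brain between these stages, 3 of 3 passing the test. Hbb-y, the embryonic beta-like globin, was at 3094, 936, 1099 and 1025 CPM at E12.5 and at 1.09, 1.11, 0.998 and 2.94 CPM at E16.5 (log2 -9.94, SE 0.81, adjusted p = 1.7e-07). Hba-x, the embryonic alpha-like globin, went from 488, 196, 262 and 121 CPM to at most 0.849 CPM (log2 -8.93). Hbb-bh1 had 3361 counts over the 4 E12.5 KO libraries and 3 over those of E16.5, a ratio of 1220 with an exact 95% interval of 417 to 5910 that covers counting error only. WT values were close, at -9.89 for Hbb-y and -8.74 for Hba-x. Of the 4 adult globins only Hbb-bs, an adult beta chain, rose in KO, from 123, 63.3, 51.0 and 139 CPM to 311, 358, 224 and 332 CPM (log2 1.70, adjusted p = 0.0499). This call was lost under 6 of the other settings and in 13 of the 16 fits that left out 1 library, and Hba-a1 did not pass (log2 -0.89, adjusted p = 0.127). Of 9 erythroid genes tested 8 fell, among them Slc4a1, the band 3 anion exchanger, from between 24.8 and 46.7 CPM to between 1.26 and 2.04 CPM. Blood left in the tissue was not measured separately, and its part in these values was not tested.

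The stretch just before the transcription start of the globins is shown here because the embryonic genes and Hbb-bs moved in opposite directions. Each line gives 120 bases upstream of the RefSeq start (GRCm38.p6), 5′ to 3′ on the strand of the gene, with CCAAT and CACCC, known boxes of globin promoters, in capitals on either strand. Hbb-y lies at chr7:103853208-103853327 (minus strand), Hba-x at chr11:32276480-32276599 (plus) and Hbb-bs at chr7:103827929-103828048 (minus).
Hbb-y: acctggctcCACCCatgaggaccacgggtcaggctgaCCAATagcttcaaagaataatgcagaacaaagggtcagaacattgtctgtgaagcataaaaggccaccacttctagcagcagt
Hba-x: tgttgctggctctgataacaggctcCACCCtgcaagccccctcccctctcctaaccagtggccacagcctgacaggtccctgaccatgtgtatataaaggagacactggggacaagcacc
Hbb-bs: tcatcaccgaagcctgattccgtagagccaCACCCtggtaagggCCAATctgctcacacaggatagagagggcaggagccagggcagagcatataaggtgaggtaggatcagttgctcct
All 3 windows hold 1 CACCC, and Hbb-y and Hbb-bs also hold 1 CCAAT, so these letters did not separate the falling from the rising gene. Within 250 bases upstream, CACCC occurred for 54.5% of the 27025 genes in the table and CCAAT for 37.5%.

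Every one of 25 cell cycle genes tested fell in KO, with a list median of -1.98 (log2) against -0.04 over all genes, and 24 fell at least 2-fold. Ccnd1, the cyclin D1 of G1 progression, was at 174, 208, 245 and 177 CPM at E12.5 and at 29.0, 25.1, 28.7 and 34.4 CPM at E16.5 (log2 -2.78, SE 0.14, adjusted p = 1.65e-09). Cdc20, an activator of the anaphase-promoting complex, went from 171, 135, 149 and 109 CPM to 29.5, 30.1, 25.6 and 28.3 CPM (log2 -2.31). Stages were apart for all 25, against 51.5% of all genes. Ccnd2, the most abundant, was the one that fell less than 2-fold, from between 442 and 800 CPM to between 331 and 375 CPM (log2 -0.99). The 25 genes also fell in WT, with a median of -1.83. Pcna, the replication clamp, had the smallest p of the difference between the steps, -1.42 in KO against -1.01 in WT (unadjusted p = 0.0231, adjusted p = 0.639).

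Promoters of 4 of these genes are shown, those with the largest falls among the members that have a single entry in the RefSeq table (GRCm38.p6). Each line holds 120 bases upstream of the start on the strand of the gene. Capitals mark CCAAT, the box bound by NF-Y, and TTTGAA, the core of the cell cycle homology region, on either strand. Their positions are chr4:118437344-118437463 for Cdc20, chr1:20820313-20820432 for Mcm3, chr2:172370571-172370690 for Aurka, all on the minus strand, and chr11:117849117-117849236 on the plus strand for Birc5.
Cdc20: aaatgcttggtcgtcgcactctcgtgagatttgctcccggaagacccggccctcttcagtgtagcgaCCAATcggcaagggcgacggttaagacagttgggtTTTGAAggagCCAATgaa
Mcm3: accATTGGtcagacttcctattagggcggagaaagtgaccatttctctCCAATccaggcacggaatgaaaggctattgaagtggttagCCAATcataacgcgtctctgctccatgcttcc
Aurka: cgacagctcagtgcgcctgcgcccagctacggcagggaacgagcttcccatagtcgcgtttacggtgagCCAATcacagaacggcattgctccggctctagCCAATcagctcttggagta
Birc5: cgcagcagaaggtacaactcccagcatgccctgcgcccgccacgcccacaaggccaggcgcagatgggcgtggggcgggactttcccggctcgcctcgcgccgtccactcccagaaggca
Cdc20 and Aurka hold 2 CCAAT each and Mcm3 holds 3, TTTGAA occurs in Cdc20 alone of the 4, and Birc5 holds neither in this window. Of the 19 cell cycle genes with a promoter entry, 17 had CCAAT within 250 bases upstream (89.5% against 37.5% of all genes) and 7 had TTTGAA (36.8% against 18.3%). For comparison, CCAAT occurred in 3 of 14 entries of the glutamate receptor list. It also occurred in 14 of 15 entries of the cholesterol synthesis list (93.3%), whose median KO step was only -0.21. These are matches of letters, not measured binding sites.

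Of 20 radial glia and neural progenitor genes 14 fell and 6 rose in KO, as in WT. Vim, the intermediate filament of radial glia and the most abundant member, was at 1363, 887, 1036 and 855 CPM at E12.5 and at 309, 303, 274 and 325 CPM at E16.5 (log2 -1.77, SE 0.14, adjusted p = 4.19e-08). The stem cell factors Sox2 (log2 -1.05) and Pax6 (-1.16), the filament Nes (-1.94) and the Notch effectors Hes1 (-1.87) and Hes5 (-2.30) fell too. Tnc, an extracellular matrix protein of outer radial glia, rose from 41.5, 26.9, 15.03 and 65.9 CPM to 210, 194, 190 and 206 CPM (log2 2.42, adjusted p = 5.03e-05). Slc1a3 (log2 0.97), Hopx (0.86), Ptprz1 (0.69), Fabp7 (0.43) and Fabp5 (0.33) also rose, the last 2 losing their call with the level of mesenchymal genes as a term of the fit. The step of Fabp7, a fatty acid binding protein of radial glia, was 0.43 in KO and 0.96 in WT (unadjusted p of the difference = 0.0239).

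Genes that mark early developmental time fell with them. Of 13 heterochronic and growth genes 9 fell and 1 rose. Lin28a, an RNA-binding protein that blocks let-7, was between 2.49 and 4.05 CPM at E12.5 and between 0.312 and 0.509 CPM at E16.5 (log2 -2.93, SE 0.28, adjusted p = 2.31e-07). Igf2bp1 (log2 -1.99), Trim71 (-1.97) and Hmga1 (-0.99) were among the others. Myc rose from between 14.49 and 17.9 CPM to between 23.8 and 31.5 CPM (log2 0.78, adjusted p = 0.000232), while its WT step of 0.31 did not pass (adjusted p = 0.0732), and the difference had an unadjusted p of 0.0345.

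Proneural and intermediate progenitor genes fell in 9 of 15 cases and rose in 2. Neurog1, a proneural factor, was at 28.8, 23.8, 33.0 and 13.5 CPM at E12.5 and at 0.820, 1.11, 0.811 and 1.70 CPM at E16.5 (log2 -4.47, SE 0.33, adjusted p = 2.64e-08). Dll3, a Notch ligand-like protein of new neurons (log2 -2.38), Gadd45g, a growth arrest gene of cells leaving the cycle (-2.21), and Neurog2 (-1.71) fell. Neurod2, a factor of differentiating excitatory neurons, rose from 53.4, 126, 93.8 and 112 CPM to 354, 379, 360 and 343 CPM (log2 1.90), and Neurod6 rose by 2.20. The median step of the list was -1.71 in KO and -1.25 in WT.

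In all 15 of these proneural genes the KO step was below the WT step, against 51.1% of all genes, and the median difference was -0.37. The same lean was seen in 20 of 25 cell cycle genes and 17 of 20 radial glia and progenitor genes. It was also seen in 15 of 19 young neuron, 14 of 18 GABA interneuron and 9 of 9 forebrain region genes. Synaptic vesicle genes were even, at 10 of 20, and 4 of 13 heterochronic and growth genes lay below 0. Gadd45g was at 186, 114, 120 and 94.1 CPM in E12.5 KO and at 65.3, 94.6, 87.5 and 109 CPM in E12.5 WT, while at E16.5 KO held 23.5 to 31.6 CPM and WT 24.7 to 36.1 CPM. The genotypes thus overlapped at both stages. Gadd45g (unadjusted p = 0.0231), Dll3 (0.0457) and Hes6 (0.047) had differences under 0.05, and none passed after adjustment. The choice of libraries moved this count: without E12.5 WT replicate 1, which was high for muscle and skin genes, 12 of 15 lay below 0, and without the 4 libraries whose non-neural markers stood apart 11 of 15 did, with a median of -0.23. With the level of mesenchymal genes as a term of the fit it was 12 of 15, with a median of -0.15. Without the same 4 libraries 11 of 20 radial glia and 5 of 9 forebrain genes lay below 0. Cell cycle genes then gave 15 of 25 and young neuron genes 17 of 19.

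**Figure D2:**
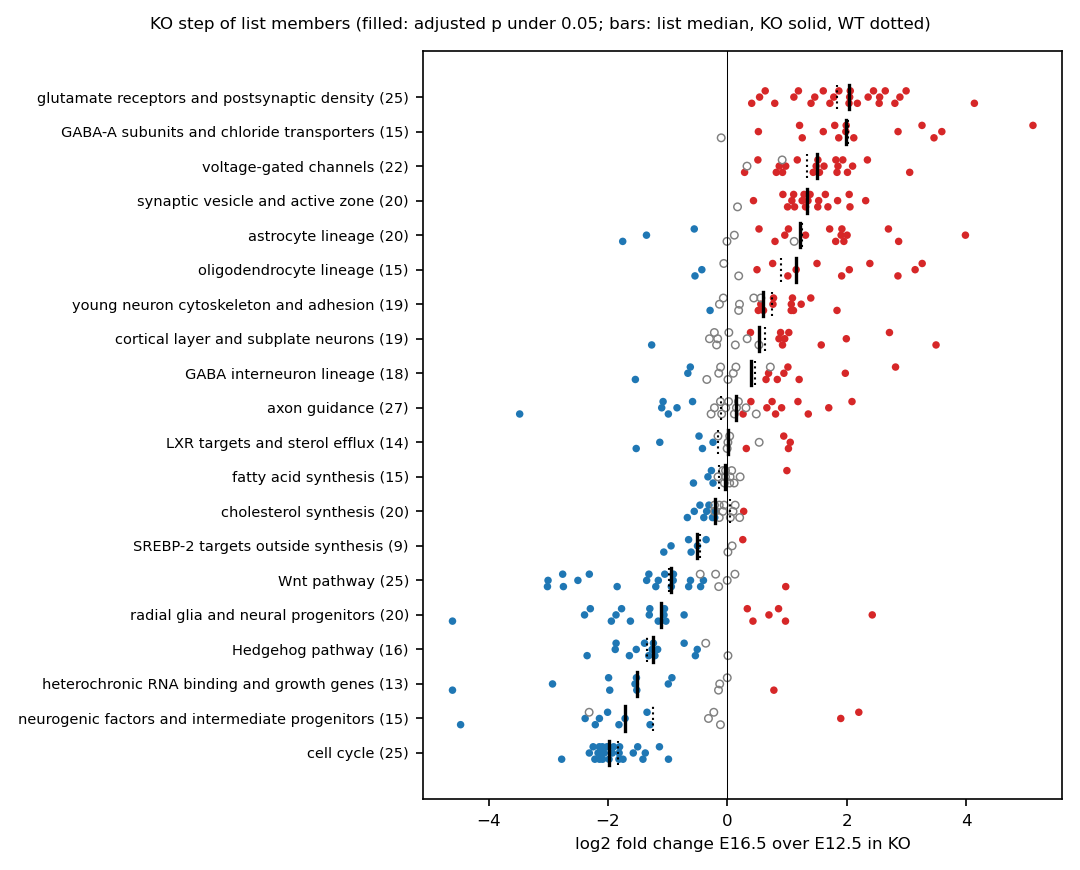
Log2 fold change from E12.5 to E16.5 in KO for each tested member of 20 gene lists (number tested in brackets), red for rising and blue for falling at an adjusted p under 0.05, open where the test was not passed. Solid bars are list medians in KO and dotted bars in WT; the order runs from a median of -1.98 for the cell cycle to 2.03 for glutamate receptors.

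Genes of synapses and excitability rose almost without exception. All 25 glutamate receptor and postsynaptic genes rose in KO, with a median of 2.03 (WT 1.84), as did 19 of 20 synaptic vesicle genes (median 1.33), 20 of 22 voltage-gated channel genes (1.5) and 14 of 15 GABA-A receptor and chloride transporter genes (1.98). Grm5 was at 2.13, 7.05, 4.65 and 7.46 CPM at E12.5 and at 95.7, 96.0, 104 and 82.6 CPM at E16.5 (SE 0.36, adjusted p = 2.36e-07). Gria2, the AMPA receptor subunit that limits calcium entry and the most abundant of the list, was at 110, 250, 205 and 268 CPM and then at 653, 637, 705 and 743 CPM (log2 1.71, SE 0.26). Camk2b, a postsynaptic kinase, rose by 2.99 on the log2 scale. In each of these genes E12.5 KO replicate 1 was the lowest library, and without it and E16.5 WT replicate 1 the counts were 25 of 25, 18 of 20, 18 of 22 and 14 of 15.

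On the presynaptic side Syn2, a vesicle phosphoprotein, went from 10.6, 18.1, 16.1 and 21.8 CPM to 85.5, 88.9, 90.7 and 67.3 CPM (log2 2.31, SE 0.24, adjusted p = 9.08e-07). Cplx1, a complexin that clamps fusion (log2 2.05), and Stx1a, a plasma membrane SNARE (1.35), rose too. Among channels Cacna1e, a calcium channel subunit, rose by 2.34. Scn2b, a sodium channel beta subunit, rose by 0.92 in KO and by 0.41 in WT, the smallest p of the difference in its list (unadjusted p = 0.00885, adjusted p = 0.639).

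For inhibition, Gabra5 rose from 1.98, 3.22, 2.29 and 3.46 CPM to 33.0, 34.6, 40.4 and 24.8 CPM (log2 3.59, SE 0.24, adjusted p = 9.04e-09) and Gabrg1 by 3.46. Slc12a5, the chloride exporter KCC2, went from 27.9, 66.8, 47.0 and 56.9 CPM to 193, 177, 188 and 166 CPM (log2 1.86). Slc12a2, the chloride importer NKCC1, was the member that did not pass (log2 -0.11). The median difference between the KO and WT steps was within 0.04 of 0 for each of these 4 lists, and no member other than 2 channel genes had a difference with an unadjusted p under 0.05.

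Genes of young neurons rose less, from an already high level. Of 19 cytoskeleton and adhesion genes 12 rose and 1 fell, against 16 and 0 in WT, with medians of 0.60 and 0.75. The direction of this gap turned with the mesenchymal level as a term: the median difference was -0.10 in the full fit and 0.10 with the term, and it was -0.018 without E12.5 WT replicate 1. Mapt, the microtubule protein tau, was at 317, 606, 478 and 578 CPM and then at 1821, 1794, 1880 and 1564 CPM (log2 1.83, SE 0.22, adjusted p = 3.97e-06). Tubb3, the neuronal tubulin, was at 1765, 1786, 1726 and 1485 CPM in E12.5 KO and at 1958, 2054, 1948 and 1813 CPM in E16.5 KO, apart by a narrow margin and not past the test (log2 0.20, adjusted p = 0.209). In E12.5 WT Tubb3 was at 954, 1300, 1668 and 1595 CPM, and its WT step passed (log2 0.50, adjusted p = 0.00403). Stmn1, a tubulin-binding protein, gave 0.19 in KO and 0.59 in WT (unadjusted p of the difference = 0.0367). Elavl4, an RNA-binding protein of neurons, fell by 0.29, a call lost in 5 of the fits that left out 1 library.

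Of 19 cortical layer and subplate genes 10 rose and 1 fell, against 27.0% rising and 29.6% falling among all genes. The falling count was 4 without the 2 libraries of high ribosomal RNA and 5 with the mesenchymal level as a term. Mef2c, a transcription factor of maturing excitatory neurons, rose by 2.71. Pou3f3, the most abundant, did not pass (log2 -0.22, adjusted p = 0.2). Cplx3, a complexin found in subplate neurons, fell from 1.29, 0.873, 0.966 and 1.15 CPM to 0.383, 0.622, 0.312 and 0.453 CPM (log2 -1.27, adjusted p = 0.00162), while in WT it gave 0.28 and did not pass. The difference of -1.55 (SE 0.41) had an unadjusted p of 0.00155 and an adjusted p of 0.639, at levels near 1 CPM.

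In the GABA interneuron lineage 8 of 18 genes rose and 3 fell in KO, against 9 and 2 in WT. Among all genes 27.0% rose and 29.6% fell in KO. With the mesenchymal level as a term 7 of the 18 rose and 5 fell. The neuropeptide gene Npy rose from between 3.12 and 4.97 CPM to between 18.04 and 32.6 CPM (log2 2.81), Calb2, which encodes calretinin, by 1.97 and Sst, which encodes somatostatin, by 1.20. Nkx2-1, which specifies the medial ganglionic eminence, fell from 71.1, 77.9, 80.3 and 71.7 CPM to 27.8, 16.6, 33.9 and 24.9 CPM (log2 -1.54, SE 0.25, adjusted p = 9.29e-05). Its WT step was -0.77 (unadjusted p of the difference = 0.0421). Dlx1 showed no step past the test (log2 0.01, adjusted p = 0.975).

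Of 27 axon guidance genes 10 rose and 6 fell, against 27.0% rising and 29.6% falling among all genes, so that these counts do not set the list apart. Robo3, the receptor that lets commissural axons cross the midline, fell from 184, 187, 208 and 113 CPM to 14.9, 13.97, 7.67 and 25.1 CPM (log2 -3.48, SE 0.35, adjusted p = 1e-06). The midline ligands Slit2 (log2 -1.10) and Ntn1 (-0.58) and the netrin receptor Dcc (-1.08) fell as well, though the call of Ntn1 was lost in most fits with a library left out. Unc5d, a repulsive netrin receptor of migrating cortical neurons, rose by 2.08 and the semaphorin coreceptor Nrp1 by 1.18. Plxna1, the most abundant, gave -0.03 (adjusted p = 0.882). Sema3f, a repulsive semaphorin, rose by 0.26 in KO and gave -0.13 in WT (unadjusted p of the difference = 0.0164).

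Glial precursor genes rose. Of 20 astrocyte lineage genes 14 rose and 3 fell. Bcan, a brain proteoglycan, was at 3.12, 12.4, 9.12 and 11.8 CPM and then at 74.0, 61.1, 65.4 and 67.6 CPM (log2 2.87, SE 0.40, adjusted p = 2.34e-05). Nfib, a factor of gliogenesis and the most abundant, rose by 1.31, and Aqp4, the astrocytic water channel, by 2.69. Gfap had 12 counts over the E12.5 KO libraries and 211 over those of E16.5, a ratio of 16.2 (exact 95% interval 9.06 to 31.8, counting error only). Clu, a secreted chaperone, was at 20.2, 12.8, 12.7 and 16.1 CPM in E12.5 KO and at 51.7, 63.8, 67.8 and 54.7 CPM in E16.5 KO (log2 1.95). In WT it rose by 1.19, and the difference had an unadjusted p of 0.00701.

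In the oligodendrocyte lineage 11 of 15 genes rose and 2 fell, against 8 and 0 in WT. The mean log2 CPM of the list was lower in KO at E12.5 by a narrow margin, at 2.54 to 2.70 against 2.73 to 2.85 in WT, and overlapped at E16.5. The summed level overlapped at E12.5 as well, at 181, 168, 164 and 205 CPM in KO and 374, 210, 191 and 220 CPM in WT. Olig1 rose from 6.23, 4.70, 4.47 and 3.70 CPM to 43.6, 47.7, 45.8 and 30.7 CPM (log2 3.14, SE 0.20, adjusted p = 6.1e-09). Opcml, a cell adhesion protein and the most abundant member, rose by 3.26, Gpr17, a receptor of committed precursors, by 2.38 and Cspg4, the NG2 proteoglycan, by 1.01. Cspg4 gave 0.36 in WT (unadjusted p of the difference = 0.0182), where E12.5 WT replicate 1 stood at 18.1 CPM and the other E12.5 WT libraries between 9.81 and 11.2 CPM. Olig2 and Nkx2-2, which also mark ventral progenitors, fell by 0.43 and 0.54. Both calls were lost without the 4 libraries whose non-neural markers stood apart, and that of Olig2 in 6 of the fits that left out 1 library.

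**Figure D3:**
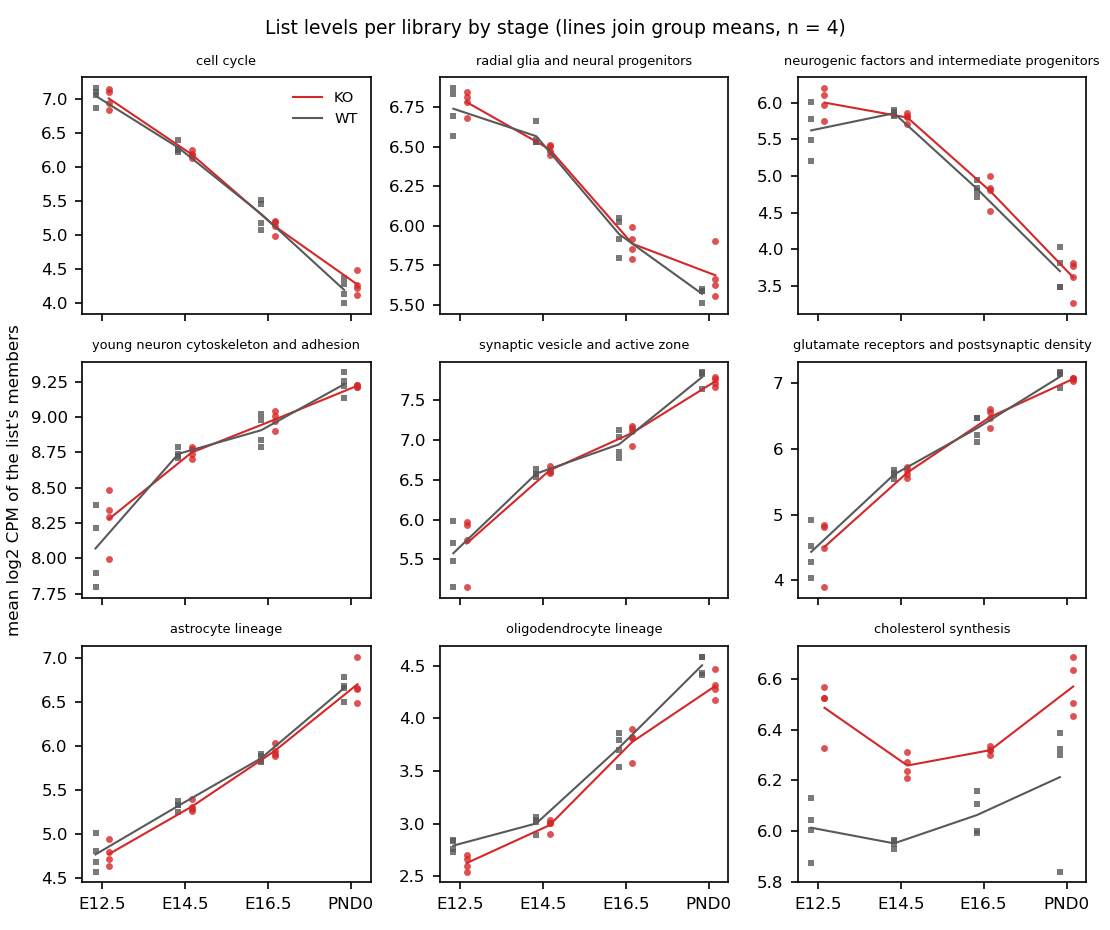
Mean log2 CPM of the members of 9 gene lists in each library at E12.5, E14.5, E16.5 and PND0, KO as red circles and WT as grey squares (n = 4 per group), lines joining group means. KO and WT overlap at E12.5 and E16.5 in the panels of cell cycle, progenitor, neuron, synapse and astrocyte genes, while cholesterol synthesis genes lie higher in all 4 KO libraries than in all 4 WT libraries at both of these stages. Oligodendrocyte lineage genes lie lower by a narrow margin in all 4 KO libraries than in all 4 WT libraries at E12.5 on this measure, and the genotypes overlap at E16.5.

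Cholesterol synthesis genes that passed the test mostly fell in KO and mostly rose in WT, while the difference between the steps passed after adjustment for no single gene. Of 20 cholesterol synthesis genes 9 fell and 1 rose in KO, whereas 2 fell and 5 rose in WT, and the median step was -0.21 in KO and 0.05 in WT. The summed level was 3025, 3024, 3169 and 2615 CPM in E12.5 KO and 2551, 2585, 2607 and 2506 CPM in E16.5 KO. In WT it was 1785, 2047, 2040 and 2183 CPM and then 2198, 2250, 2006 and 2028 CPM. KO stood above WT at both stages with no overlap, and the KO stages were apart from each other, while the WT stages overlapped.

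Msmo1, the sterol C4 methyl oxidase, had the smallest p of the step difference in the list. It was at 166, 137, 146 and 113 CPM in E12.5 KO and at 102, 103, 101 and 102 CPM in E16.5 KO (log2 -0.46, SE 0.10, adjusted p = 0.00106). In WT it was at 70.3, 84.3, 85.2 and 90.5 CPM and then at 90.8, 98.7, 81.3 and 90.8 CPM (log2 0.13, adjusted p = 0.297). The difference was -0.59 (SE 0.14, unadjusted p = 0.000796, adjusted p = 0.639). The KO stages did not overlap and the WT stages did.

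Hmgcs1, the HMG-CoA synthase and the most abundant member, did not pass in KO (log2 -0.14) and rose in WT by 0.28 (unadjusted p of the difference = 0.0103). Acat2, Cyp51, Fdft1 and Idi1 gave the other differences with an unadjusted p under 0.05 in the edgeR fit, from 0.0022 for Acat2 to 0.024 for Idi1. Idi1, the isopentenyl isomerase, had the largest step in KO, from 55.4, 60.8, 65.6 and 53.0 CPM to 34.8, 36.5, 38.5 and 37.6 CPM (log2 -0.67, SE 0.09, adjusted p = 1.48e-05). The difference was below 0 in 18 of 20 genes, against 51.1% of all genes, and in 16 to 20 of 20 under the other settings and with any library left out. The median difference of -0.22 was -0.11 with the mesenchymal level as a term.

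Other SREBP-2 targets fell in 6 of 9 cases and 1 rose, against 5 and 0 in WT, with medians of -0.50 in KO and -0.46 in WT. The KO step was above the WT step in 5 of these 9 genes, against 48.9% of all genes. Insig1, which retains the SREBP complex in the endoplasmic reticulum, fell from between 128 and 155 CPM to between 93.6 and 109 CPM (log2 -0.50), while its WT step of -0.17 did not pass (unadjusted p of the difference = 0.0159). Srebf2 fell by 0.36 in KO and by 0.46 in WT.

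Of 14 LXR target and sterol efflux genes 4 rose and 5 fell, again near the 27.0% and 29.6% of all genes. Abcg1, a sterol exporter, was at 6.69, 7.45, 7.49 and 8.18 CPM in E12.5 KO and at 10.1, 8.51, 10.6 and 7.92 CPM in E16.5 KO (log2 0.32, SE 0.10, adjusted p = 0.0146). In WT it held 21.2 to 22.9 CPM at E12.5 and 20.1 to 21.6 CPM at E16.5, with a step of -0.11 that did not pass. Every KO library was thus below every WT library at both stages, and the difference between steps was 0.42 (unadjusted p = 0.0078, adjusted p = 0.639). The KO call of Abcg1 was lost under 3 other settings and without E16.5 KO replicate 1 or 3. Abca1 (log2 0.94), Abcg4 (1.05) and Apoe (1.02) rose, and Abcg5 (-1.13) and Abcg8 (-1.53), intestinal and hepatic sterol exporters at low level here, fell. Of 15 fatty acid synthesis genes 4 fell, such as Acly (-0.57), and Me1 rose by 0.995, each with a WT value within 0.05.

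Hedgehog and Wnt pathway genes fell in both genotypes. The Hedgehog protein carries cholesterol as a covalent modification, and its receptor system is sterol sensitive. Of 16 Hedgehog genes 14 fell and none rose in KO, the same counts as in WT, with medians of -1.25 and -1.35. The ligand Shh was at 21.1, 16.4, 18.8 and 15.1 CPM and then at 3.88, 3.25, 3.24 and 3.56 CPM (log2 -2.35, SE 0.28, adjusted p = 3.4e-06, WT -2.0). The receptor Ptch1 fell by 0.73 (WT 0.74), the transducer Smo by 1.22 (WT 1.42) and the target Gli1 by 1.26 (WT 1.70). Gas1, a coreceptor, fell by 1.88. Disp1, which releases the ligand, fell by 0.51 in KO and by 1.03 in WT (unadjusted p of the difference = 0.0141), where E12.5 WT libraries ranged from 18.1 to 29.1 CPM. No other Hedgehog gene had a difference with an unadjusted p under 0.05.

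Of 25 Wnt genes 19 fell and 1 rose, against 19 and 0 in WT. Rspo1, a secreted enhancer of Wnt signals, went from between 19.7 and 25.8 CPM to between 2.06 and 3.87 CPM (log2 -3.01, SE 0.20, adjusted p = 7.53e-09), and Wnt8b, a ligand of the cortical hem, by a like amount (log2 -3.00). The effector Ctnnb1 fell by 0.65 and the target Axin2 by 0.94. Lgr5, a receptor for R-spondins, fell by 1.35 in KO and by 2.66 in WT (unadjusted p of the difference = 0.038). Notum, a secreted Wnt inhibitor, was the gene that rose (log2 0.98), a call lost in 4 of the fits that left out 1 library.

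Of 14 endothelial genes 4 rose and 5 fell, shares near those of all genes (27.0% and 29.6%). Slco1c1, a thyroxine transporter of brain capillaries, rose from 4.03, 5.37, 3.62 and 5.76 CPM to 25.7, 30.3, 25.3 and 25.7 CPM (log2 2.51, SE 0.18, adjusted p = 1.29e-08). Plvap, a protein of leaky capillaries, fell from between 12.7 and 24.5 CPM to between 3.06 and 4.24 CPM (log2 -2.15), and the tight junction gene Cldn5 rose by 1.23. Pecam1, present in all endothelium, did not pass (log2 -0.20). Rgs5, a pericyte gene, rose by 1.56. Of 14 microglia and macrophage genes 7 rose, by at most 0.69, and 1 fell; without the 4 libraries whose non-neural markers stood apart 2 rose. Ttr, the transthyretin of choroid plexus, rose from between 94.0 and 188 CPM to between 499 and 898 CPM (log2 2.40).

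Markers of tissue around the brain differed between libraries. The summed level of 16 meningeal and mesenchymal genes was 3331, 1503, 1530 and 4048 CPM in E12.5 KO and 1079, 1058, 1254 and 1314 CPM in E16.5 KO. In E12.5 WT it was 5300, 3501, 2384 and 3116 CPM. Replicates 1 and 4 of E12.5 KO thus held over 2 times as much as the other KO libraries of that stage. Of the list 10 genes fell and 2 rose in KO, with medians of -1.06 in KO and -1.71 in WT. Twist1, a factor of mesenchyme, was at 79.9, 11.9, 9.78 and 58.1 CPM at E12.5 and between 3.18 and 4.53 CPM at E16.5 (log2 -3.44, adjusted p = 0.00161).

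For skeletal muscle genes the 4 libraries of E12.5 KO summed to 24.5, 29.9, 8.69 and 12.8 CPM and those of E12.5 WT to 204, 56.7, 33.1 and 23.1 CPM. At E16.5 all 8 libraries of both genotypes lay between 7.399 and 14.4 CPM. The KO step was above the WT step in 8 of 8 muscle genes (median difference 1.6), 7 of 8 cartilage and bone genes, 8 of 10 skin and oral epithelium genes and 15 of 16 mesenchymal genes, against 48.9% of all genes. Without E12.5 WT replicates 1 and 3 and E16.5 KO replicates 3 and 4 the muscle count was 5 of 8, with a median difference of 0.24, and without E12.5 WT replicate 1 alone it was 7 of 8 with 0.57. With the mesenchymal level as a term of the fit the number of genes called in WT was 2938 rising and 3175 falling.

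**Figure D4:**
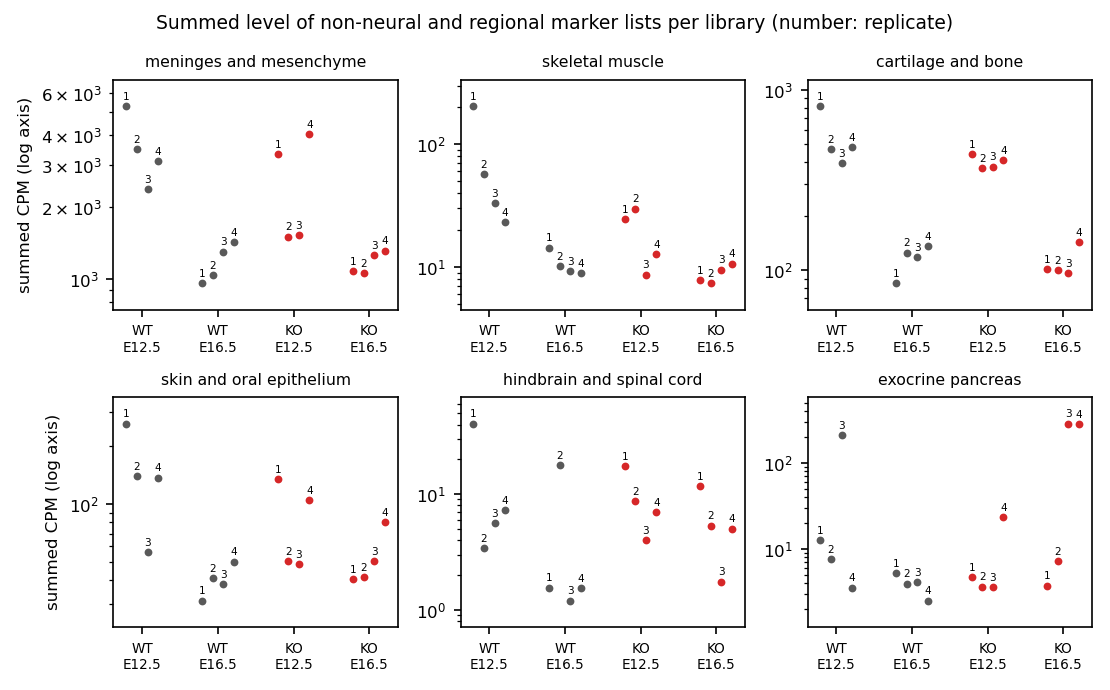
Summed CPM (log axis) of 6 marker lists in each of the 16 libraries, WT in grey and KO in red, with the replicate number above each point. E12.5 WT replicate 1 is the highest library for mesenchyme, muscle, cartilage, skin and hindbrain lists, and exocrine pancreas genes stand out in E12.5 WT replicate 3 and E16.5 KO replicates 3 and 4.

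Of all lists, exocrine pancreas genes had the largest median difference between the steps (9.34), carried by 3 libraries. The list was chosen after these values were seen. The 14 genes summed to 3.72, 7.19, 285 and 279 CPM in E16.5 KO and to 12.7, 7.49, 208 and 3.52 CPM in E12.5 WT, while E16.5 WT held 2.49 to 5.23 CPM. E12.5 KO replicate 4 stood at 23.3 CPM and the other 3 of its group between 3.56 and 4.71 CPM. Ctrb1, a chymotrypsinogen, was at 0.0547, 2.49, 104 and 94.6 CPM in E16.5 KO, so its rise in KO (log2 4.96, adjusted p = 0.0459) rested on 2 libraries. Without E12.5 WT replicates 1 and 3 and E16.5 KO replicates 3 and 4, its KO step was -0.37, and of the 13 genes tested in the full fit only 5 were still tested, 0 rising. Of all 13, 6 rose in the full fit, and 0 with the mesenchymal level as a term or without the 2 libraries of high ribosomal RNA.

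The test of the step difference, KO minus WT, called 0 of 18241 genes (0.0%) with edgeR's quasi-likelihood test, and the smallest adjusted p was 0.639. At an unadjusted p under 0.05 there were 1394 genes (7.64%), 700 with a higher KO step (3.84%) and 694 with a lower one (3.8%). DESeq2 called 2, Gstm1 higher and Upf3b lower (adjusted p = 0.0471), and edgeR without E12.5 WT replicate 3 called Gstm1 and Trim66. The median SE of a difference was 0.19 (log2) among genes of at least 1 CPM, against 0.14 for the KO step alone, and the quartiles of the difference among these genes were -0.16 and 0.16.

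Gstm1, a glutathione transferase, was at 8.89, 9.20, 7.79 and 7.64 CPM in E12.5 KO and at 25.1, 24.5, 28.4 and 26.9 CPM in E16.5 KO (log2 1.65, SE 0.13, adjusted p = 3.36e-08). WT libraries held 14.2, 12.9, 9.55 and 14.1 CPM and then 24.6, 22.6, 19.3 and 19.3 CPM (log2 0.75). KO was thus below every WT library at E12.5, and at E16.5 it was higher with a narrow overlap, with a difference of 0.90 (SE 0.18, unadjusted p = 0.000105, adjusted p = 0.639). At E14.5 the means were 15.7 CPM in KO and 14.1 CPM in WT, and at PND0 56.7 and 55.2 CPM.

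Trim66, a chromatin reader of the tripartite motif family, was at 2.58, 2.28, 1.99 and 2.18 CPM in E12.5 KO and at 7.27, 8.51, 10.9 and 8.32 CPM in E16.5 KO (log2 1.95). E12.5 WT held 6.21, 8.29, 2.53 and 7.45 CPM, and the WT step of 0.15 did not pass. Replicate 3 of E12.5 WT lay within the E12.5 KO range, and the other 3 WT libraries lay above it. Ttll6, a tubulin glutamylase of cilia, went from between 0.304 and 0.485 CPM to between 1.11 and 2.04 CPM in KO (log2 1.95), whereas its WT libraries overlapped between 0.710 and 1.91 CPM. Aloxe3, an epidermal lipoxygenase, had 11 counts in E12.5 KO and 326 in E16.5 KO, a ratio of 27.2 (exact 95% interval 15 to 55.1, counting error only), and a mean 6.88 times higher at E16.5 in WT.

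Gm26793, an antisense transcript on chromosome 7 (144894560 to 144897461), showed the opposite arrangement. It was at 2.89, 3.89, 3.501 and 3.39 CPM in E12.5 KO and at 3.88, 2.49, 4.43 and 3.34 CPM in E16.5 KO, with no step past the test. In WT it fell from 3.44, 5.18, 5.01 and 6.40 CPM to 1.94, 2.11, 1.67 and 0.957 CPM (log2 -1.58, adjusted p = 4.28e-05). Dmbt1, a secreted mucin-like protein, completed the 6 genes with a higher KO step. It had 0 counts in 3 of the 4 E12.5 KO libraries and stood at 0, 5.05, 19.0 and 10.4 CPM in E16.5 KO and at 1.75, 5.42, 12.8 and 0 CPM in E12.5 WT.

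The 6 genes with a lower KO step at the smallest p include the X-linked Upf3b, Hmgn5 and Apoo, and none of the 6 passed after adjustment in the edgeR fit. The share of X-linked genes among all genes tested was not counted. Upf3b, a factor of nonsense-mediated decay, was at 68.6, 71.2, 69.6 and 66.0 CPM in E12.5 KO and at 71.9, 69.3, 70.0 and 76.5 CPM in E16.5 KO, and its step did not pass (log2 0.06, adjusted p = 0.449). In WT it rose from 50.9, 55.1, 60.9 and 60.1 CPM to 83.1, 86.5, 75.3 and 80.4 CPM (log2 0.52, adjusted p = 8.89e-06). The difference was -0.45 (SE 0.10, unadjusted p = 0.000234), and -0.48 with a term for sex genes in the fit.

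Hmgn5, a nucleosome-binding protein, fell from 68.5, 57.9, 68.6 and 56.8 CPM to 28.3, 27.5, 31.1 and 32.3 CPM in KO (log2 -1.08, SE 0.09) and by 0.59 in WT, a difference of -0.49, or -0.55 with the sex term. Apoo, a mitochondrial cristae protein, fell by 0.43 in KO and gave 0.16 in WT, a difference of -0.59, or -0.71 with that term. Ero1lb, an oxidoreductase of the endoplasmic reticulum, was at 17.8, 18.5, 16.4 and 17.1 CPM and then 20.2, 17.7, 20.4 and 19.0 CPM in KO (log2 0.15, not passed), while in WT it rose from 12.2, 13.5, 14.8 and 15.4 CPM to between 21.5 and 23.2 CPM (log2 0.65). Pantr1, a long noncoding RNA next to Pou3f3, fell by 0.42 in KO, from between 80.9 and 110 CPM to between 62.2 and 75.9 CPM, and gave 0.28 in WT, which did not pass. At E14.5 the KO and WT means of these genes were 59.0 and 58.1 CPM for Upf3b, 40.1 and 40.1 CPM for Hmgn5 and 58.4 and 60.4 CPM for Pantr1.

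**Figure D5:**
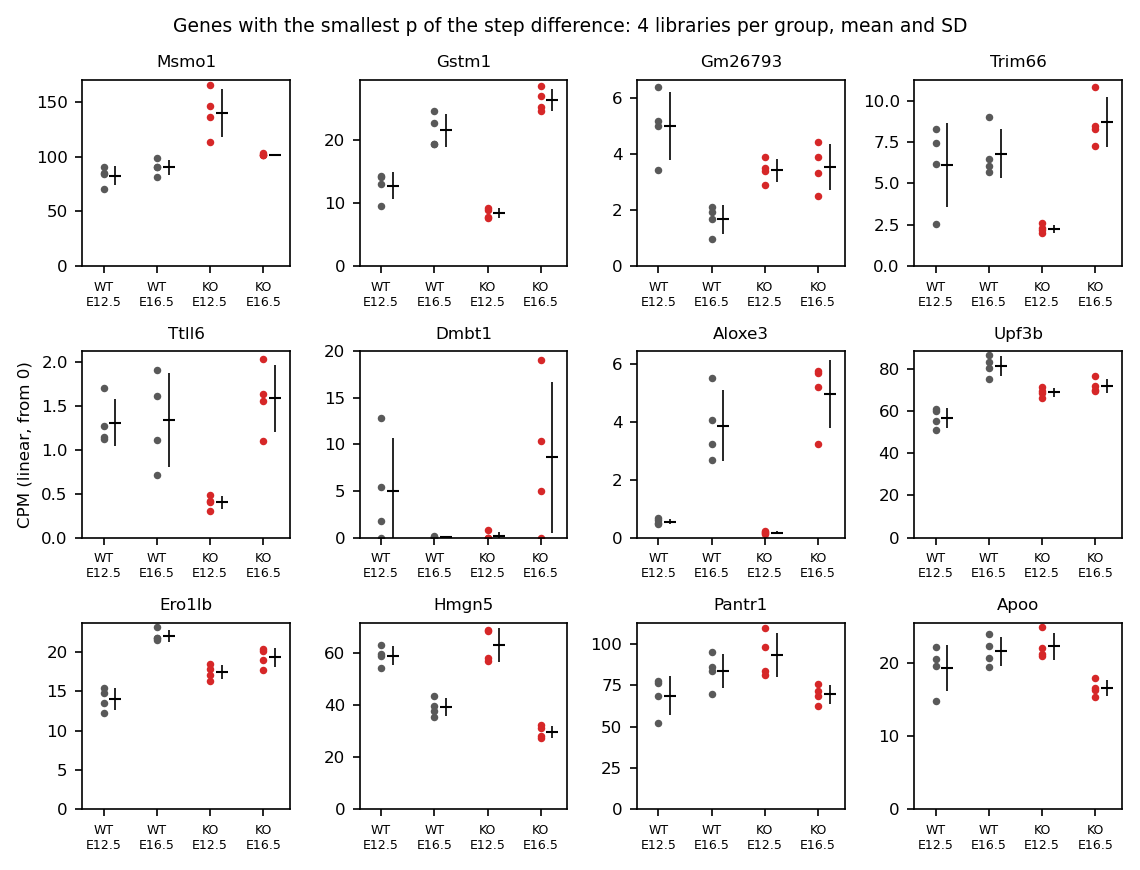
CPM (linear axis from 0) of 12 genes at a mean of at least 1 CPM, sex genes left out. They are the 6 with the smallest p of the step difference among higher KO steps and the 6 among lower ones. Points are the 4 libraries per group, with mean and SD beside them, WT in grey and KO in red. Gstm1 and Trim66 rise further in KO, from lower E12.5 levels, and Msmo1 falls in KO from a higher E12.5 level; none passed the adjusted test of the difference.

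At an adjusted p under 0.05, 6 genes were called in both steps in opposite directions, each rising in KO and falling in WT. This set was not stable: the count was 0 with the mesenchymal level as a term, 1 in fits of each genotype alone and 21 with all 32 libraries, 2 to 17 with 1 library left out, and 1 to 5 of the 6 were among those called in each of the fits with a library left out. Ctrb1 and Cel, pancreatic enzymes, and Dmbt1 were highest in the 3 libraries with pancreas transcripts. Marveld2, a tight junction protein, went from between 0.785 and 2.06 CPM to between 1.81 and 3.01 CPM in KO (log2 0.82, adjusted p = 0.0187) and from between 1.90 and 3.68 CPM to between 1.68 and 2.16 CPM in WT (log2 -0.65, adjusted p = 0.0432). Ano9, a scramblase, and Tmprss6, a serine protease, stayed under 1 CPM in all 8 KO libraries of these stages. Stages overlapped in at least 1 genotype for each of the 6. Each of the 6 lost its KO call under 2 or more other settings or libraries left out.

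For most genes with a large step the E14.5 libraries lay between. Of the 1817 rising genes of at least 2-fold at a mean of at least 1 CPM, 89.4% had an E14.5 KO mean between those of E12.5 and E16.5, and the median gene had made 55.0% of its step by then. Of the 1144 falling genes 87.3% did, with a median of 45.0%. From E16.5 to PND0 79.8% of the rising and 82.3% of the falling genes continued in the same direction in KO. Among genes with such a step in both genotypes, the median share reached by E14.5 was 55.5% in KO and 59.4% in WT for rising genes and 45.2% and 44.5% for falling genes. Neurog1 went through means of 24.8, 10.4, 1.11 and 0 CPM across the 4 stages in KO, Hbb-y through 1540, 336, 1.53 and 0 CPM, and Clu through 15.4, 28.6, 59.5 and 110 CPM. Cholesterol synthesis genes departed from such a course: Msmo1 had KO means of 140, 96.1, 102 and 120 CPM.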

How the data were processed

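Raw gene counts of whole-brain mRNA libraries were deposited by the authors, 1 table per stage, each with 4 WT and 4 KO columns. The submitters' processing notes name HISAT2, SAMtools, featureCounts and DESeq2 and the build mm10; versions, annotation and strand setting are not given in the sources used here, so reads of overlapping or antisense genes may be shared. The members, gene lists and rules were chosen with earlier results of these data known. Groups came from the labels, and no library was left out of the main fit.

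Counts of 16 libraries (E12.5 and E16.5, both genotypes) were fitted in 1 model with edgeR 4.0.16 (R 4.3.3), with TMM factors over all 32 libraries and filterByExpr (minimum count 10, minimum total 15), which kept 18241 of 55291 genes. The quasi-likelihood test gave the KO step, the WT step and their difference, each adjusted over all genes tested by Benjamini-Hochberg at 0.05. CPM values use TMM-scaled totals. SEs are of log2 fold changes; the common biological coefficient of variation was 16.6%. Tests ran first on simulated data. Named genes are Dhcr7, Acte1, the 6 largest changes each way at 10 CPM or more, 2 to 4 members per list by size, abundance and smallest p of the difference, the 6 smallest p of the difference each way, and up to 5 genes called in opposite directions; other list members were named after their values were seen. Gene positions are from GENCODE M21 (GRCm38) and promoters from RefSeq (GRCm38.p6). Alternatives were other scaling, no low-count filter, DESeq2 1.42.0, 8 or all 32 libraries, a replicate block, a sex term and each library left out; a mesenchyme term and leaving out 2 sets of libraries were added after seeing the data. Intervals and floors cover counting error only. Some genes that the rule for named genes or the lists would name are not reported here singly, and the list counts include them.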

Additional observations from a re-analysis of the deposited data

Results flagged for a closer look

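Of 282 groups of 4 libraries examined, 21 had 1 library apart from the other 3 by Dixon's criterion; chance alone flags about 1 in 20 groups. Pancreas transcripts gave several: Ctrb1 was at 76.8 CPM in E12.5 WT replicate 3 (others at most 4.46 CPM) and at 6.0 CPM in E12.5 KO replicate 4 (others at most 0.152 CPM), and low at 0.0585 CPM in E16.5 WT replicate 2. Dmbt1 was at 0.788 CPM in E12.5 KO replicate 4 and at 0 in the others, and the exocrine pancreas list had a mean log2 CPM of 0.336 in that library.

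Red cell genes were high in single libraries: Hbb-y at 3090 CPM in E12.5 KO replicate 1 (others 936 to 1100 CPM), Hbb-y at 2.94 CPM in E16.5 KO replicate 4 and Hbb-bh1 at 111 CPM in E12.5 WT replicate 1. Ptgds stood at 8.46 CPM in E12.5 WT replicate 3 (others at most 1.05 CPM) and at 186 CPM in E16.5 WT replicate 4. Olig3 was at 27.7 CPM in E12.5 WT replicate 4 (others at most 13.9 CPM) and Ano9 at 0.748 CPM in E16.5 KO replicate 3.

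List levels (mean log2 CPM) also stood apart. E12.5 WT replicate 1 was high for cartilage and bone (3.58, others at most 2.16) and for hindbrain and spinal cord (-0.15, others at most -2.03), and E16.5 WT replicate 2 for hindbrain and spinal cord (-0.98). Pituitary genes were high in E12.5 KO replicate 1 (-0.488, others at most -1.82) and low in E12.5 WT replicate 2 (-1.52). Wnt genes were low in E12.5 WT replicate 3 (4.44) and fatty acid synthesis genes in E12.5 KO replicate 1 (6.27). LXR targets were high in E16.5 KO replicate 4 (4.46) and heterochronic genes in E16.5 WT replicate 3 (3.83).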

How the results depend on the processing

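The KO counts of rising and falling genes stayed within 1.5 times of 4929 and 5402 under every setting run, as did the counts of at least 2-fold. The WT counts moved with the mesenchymal level as a term, to 2938 rising and 3175 falling genes. The step difference called 2 higher genes without E12.5 WT replicate 3 and 0 with any other library left out, and DESeq2 called 1 higher and 1 lower. The slope of 0.944 ran from 0.892 to 1.03 with each library left out.

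The replicate numbers did not pair the libraries: 24 same-numbered pairs correlated at -0.285 to 0.317 (median -0.0362, other pairs -0.00896). With the replicate number as a block, 4895 genes rose and 5253 fell in KO, 4769 and 5234 in WT, 0 differed and the slope was 0.949.

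Reversed signs occurred for steps that had not passed and for Ctrb1. With the mesenchyme term Tubb3 was at -0.0014, Fdft1 at -0.0768, Slc12a2 at 0.0134 and Dlx1 at -0.298, and Dlx1 was at -0.121 without the 2 libraries of high ribosomal RNA. Plxna1 was at 0.0023 with the replicate block. Without the libraries apart in non-neural markers Acacb was at -0.0051, Csf1r at -0.0048 and Ctrb1 at -0.375, and with the sex term Uty was at 0.648. With each library left out Dlx1 ran from -0.121 to 0.0975, Plxna1 from -0.222 to 0.0722, Acacb from -0.0076 to 0.0714 and Csf1r from -0.0048 to 0.267, and Fdft1 from -0.0049 to 0.0744. KO calls near the threshold were lost under some settings: Dhcr7 in the fit of 8 libraries, without the libraries apart and without E12.5 KO replicate 3; Abcg1 without the filter, in the fit of 8 libraries and with the mesenchyme term; Fabp7 and Lgr5 with the mesenchyme term, Fabp7 also without E12.5 KO replicate 4 or E16.5 KO replicate 1 or 2; Sema3f without the filter, without either set of libraries and in 4 fits that left out 1 library; Srebf2 without the libraries apart and without E12.5 KO replicate 2 or 3; Marveld2 without E12.5 KO replicate 3 or E16.5 KO replicate 1; Ano9 without the libraries apart and without E12.5 KO replicate 3 or E16.5 KO replicate 3; Tmprss6 without any of E12.5 KO replicates 2 and 3 and E16.5 KO replicates 1 and 2; Dmbt1 with the mesenchyme term and without the libraries apart; Ctrb1 in 10 and Cel in 5 of the fits that left out 1 library; Ntn1 in 11, Olig2 in 6, Elavl4 in 5 and Notum in 4 of them. Stmn1 passed without E12.5 KO replicate 1. The causes were not tested. Genes near the floor of 3 counts and differences within their SE could not be resolved.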

Other observations

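Of 11 hypoxia and glycolysis genes 5 fell and 3 rose in KO, against 29.6% falling and 27.0% rising among all genes, and the counts of the next 2 lists are read against the same shares. Hk2, a hexokinase, fell from 36.2, 36.3, 41.6 and 29.7 CPM to 8.91, 7.54, 7.55 and 9.67 CPM (log2 -2.09, SE 0.17), and by 2.03 in WT. The glucose transporter gene Slc2a1 fell by 0.81 and Eno1, an enolase, by 0.52. Of 10 immediate early genes 3 fell and 3 rose, as among all genes. Jun fell by 0.52 in KO and by 0.83 in WT (unadjusted p of the difference = 0.0243), while Btg2, an antiproliferative gene, fell by 2.01. In the unfolded protein and stress list 5 of 12 fell and 3 rose. Trib3, a pseudokinase of the stress response, fell by 1.15 in KO and by 2.49 in WT (unadjusted p of the difference = 0.0142). Mitochondrially encoded transcripts, 5 of 13 of which rose (1 or 2 with the mesenchyme term or without either set of libraries), summed to 7600 CPM in E12.5 KO replicate 1 and to at least 9254 CPM in the other 15 libraries.

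The 4 libraries of each stage were apart in both genotypes, and in opposite directions, for 2 genes (0.011% of those tested), named after their values were seen. Ndufc1, a subunit of respiratory complex I, had means of 47.0 and 37.0 CPM in KO and of 41.0 and 44.9 CPM in WT (unadjusted p of the difference = 0.0121). Prkcd, a protein kinase C, had means of 30.8 and 34.2 CPM in KO and of 37.2 and 29.8 CPM in WT (unadjusted p = 0.00292). Both had an adjusted p of 0.639.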
